A study of Eleocharis dulcis with 24 samples.

Results

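Corms of cultivated Eleocharis dulcis were compared with corms of wild Eleocharis dulcis at middle swelling, the second of 4 sampled stages of corm growth. Genes were kept for this comparison when they had a TPM of at least 1 (a transcript level corrected for length and given as a share of a fixed library total) in at least 3 of the 6 libraries. The rule kept 24815 of the 35975 genes in the deposited table. The 5634 genes just inside it, at 1 TPM in exactly 3 libraries, had a median level of 0.17 TPM in cultivated and 3.13 TPM in wild corms, and the 647 just outside, with 2 such libraries, had 0.127 TPM in cultivated and 1.08 TPM in wild corms. Both groups held 3 libraries of corm from plants of this 1 species, labelled cultivated or wild. No line, plant age, growing site or treatment is given, and such differences cannot be told apart from origin. The other 18 libraries of the series covered initial swelling, late swelling and maturity in the same layout.

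Eleocharis dulcis, the Chinese water chestnut, is a sedge grown for its corm, a swollen underground stem that stores starch and sugars. In storage stems of this kind, cell division and growth come early in swelling and reserves are laid down as the organ fills. Gene IDs were not paired with names in the sources used here, so genes are given by ID with no function, and the tissue could not be checked against marker genes. IDs beginning with EdulChr carry a chromosome number from 1 to 111, and the other IDs, such as novel1867, carry none.

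The 6 libraries separated by origin. Spearman correlations across the 24815 genes were 0.992 among cultivated libraries, 0.993 among wild libraries and 0.538 to 0.541 between the origins. Genes kept through 1 origin had to differ, so the value between the origins is partly set by the rule. TPM keeps no record of sequencing depth, so none is known and counting error could not be estimated. Among the 7259 genes with a mean of at least 20 TPM, the median coefficient of variation between replicates was 4.72% in cultivated and 3.66% in wild corms. The limma p-values rest on the spread between libraries within a group, pooled for each gene over all 24 libraries and adjusted towards genes of like level. They do not measure the spread at middle swelling alone. They say nothing of variation among cultivated or wild plants at large.

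At middle swelling most genes differed between the origins, and more were lower in cultivated than in wild corms. In limma's test on log2(TPM + 1), 22714 genes of the comparison passed at a Benjamini-Hochberg adjusted p under 0.05, or 91.5%, and 89.7% of the 27050 genes tested in the series did. Of these, 8271 were higher and 14443 lower in cultivated corms, with a background of 31.7% higher and 58% lower. The shares stand near their background, so they say little that is particular to these genes. Among the genes that passed, 4621 were higher and 10028 lower in cultivated corms by 2-fold or more, which is 1 or more on the log2 scale. The background over all tested genes was 17.2% higher and 37.9% lower. A further 8065 genes passed the test with a smaller difference, and 2101 did not pass it. All 3 cultivated libraries lay above all 3 wild libraries for 8320 genes and below them for 14447, against a background of 31.9% and 57.8%.

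Over all genes of the comparison, larger differences were also more often towards wild corms, under both scalings. At 4-fold or more, 1730 genes were higher and 4845 lower in cultivated corms, with backgrounds of 6.4% and 17.9% of all tested genes. At 16-fold or more the numbers were 199 and 927, with backgrounds of 0.739% and 3.43%. At 64-fold or more they were 32 and 187, with backgrounds of 0.118% and 0.691%. After the median-of-ratios scaling described next, the numbers were 2279 and 3746 at 4-fold, 267 and 718 at 16-fold and 42 and 143 at 64-fold. Nearly all tested genes that differed this much are genes of the comparison, so the counts say nothing particular to it. They include genes that passed the rule through 1 origin and so had to differ. Among genes at 1 TPM or more in all 6 libraries, scaling gave the opposite order beyond 4-fold. There, 458 genes had differences from 2 to 2.25 (log2) and 344 from -2.25 to -2. Further out, 136 lay from 3 to 3.25 and 116 from -3.25 to -3. From 4 to 4.25 there were 57, and from -4.25 to -4 there were 35. Still larger differences were few and went both ways, with 22 from 4.5 to 4.75 and 27 from -4.75 to -4.5. The median difference over the comparison was -0.57 (log2), with a median standard error of 0.08 for a single gene. Over all 27050 tested genes it was -0.53.

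How far the balance lay towards wild corms depended on the scaling and on the weakly expressed genes. TPM values add up to a fixed total in each library. Median-of-ratios scaling sets the typical gene of each library equal, here over the 21528 genes above 0 in all 24 libraries. It moved the median difference by 0.29, to -0.27. The 2-fold counts were then 5712 higher and 8429 lower, with backgrounds of 21.2% and 31.4%. The 4621 genes that were 2-fold higher as deposited were all 2-fold higher after scaling. The 8429 genes that were 2-fold lower after scaling were all among the 10028. The filter matters as well, because a gene seen in 1 origin had to differ in order to be kept. Of the 17830 genes at 1 TPM or more in all 6 libraries, 3836 were 2-fold higher in cultivated corms and 5004 were 2-fold lower. Scaling turned this balance over, with 4863 higher and 3871 lower. The scaling is centred on genes detected throughout, so it partly sets the balance of these 17830 genes. For genes detected in both origins, the balance therefore follows the scaling, and no prevailing direction is read from it.

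**Figure D1:**
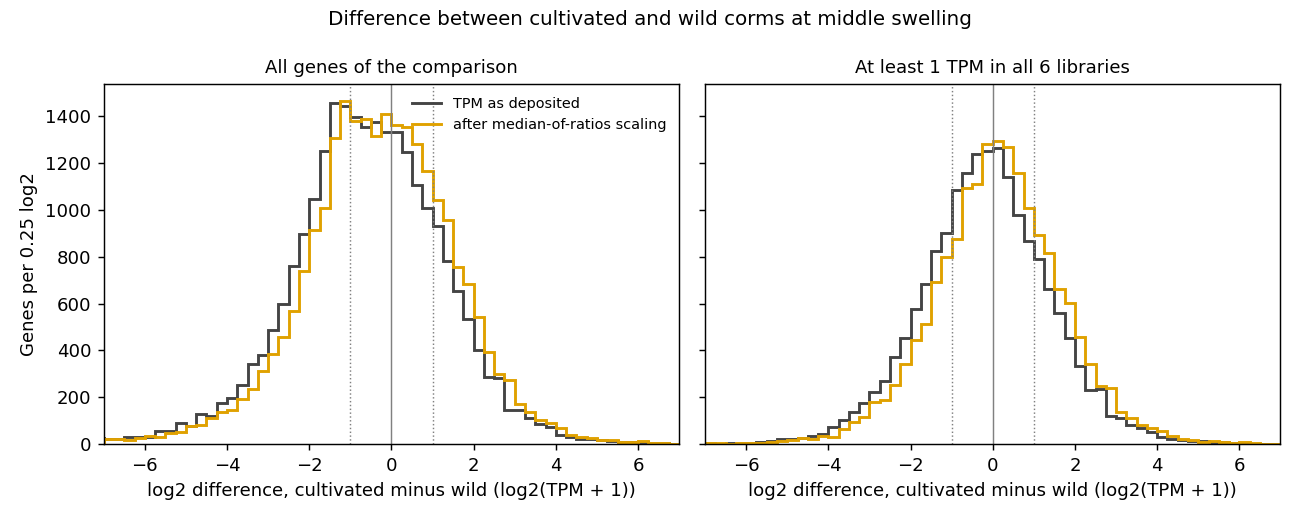
Number of genes (y axis, per 0.25 log2) by difference between cultivated and wild corms at middle swelling (x axis, log2(TPM + 1), cut at -7 and 7), for all 24815 genes and for the 17830 at 1 TPM or more in all 6 libraries; dotted lines mark 2-fold. The left tail is heavier than the right in the first panel, with a median of -0.57, and in the second panel the medians are -0.17 as deposited and 0.14 after scaling.

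Genes were also grouped by level, with and without those detected in 1 origin. Of 8573 genes with a mean under 5 TPM over the 6 libraries, 10.8% were 2-fold higher and 47.4% were 2-fold lower in cultivated corms, with a median difference of -0.91. Over all tested genes in that band it was 8.90% and 39.6%. The band holds many genes that passed the rule through wild corms alone and so had to differ. Of its 3172 genes at 1 TPM or more in all 6 libraries, 10.2% were higher and 13.8% lower, with a median of -0.11. Of 1564 genes at 100 TPM and over, 30.3% were higher and 37.1% lower, with a median of -0.27, and the band holds no other tested gene. The 1513 of them at 1 TPM or more in all 6 libraries had 30.9% higher and 35.4% lower. After scaling, the medians were -0.67 for the weakest genes and 0.07 for the strongest, so the sign for the strongest genes depended on the scaling. Among those at 1 TPM or more in all 6 libraries, the scaled medians were 0.14 for the weakest and 0.15 for the strongest. The low scaled median of the weakest genes was thus not seen among genes detected in all 6 libraries. Of the 1968 genes without a chromosome number in the ID, 15.3% were higher and 47.3% lower, against 18.9% and 39.8% of 22847 numbered genes. Most of the 1968, 1284 genes, were in the band under 5 TPM.

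Genes of the comparison not called 2-fold higher or lower held a like share of TPM in both origins. It was 30.8, 30.7 and 30.5% in the cultivated libraries and 30.5, 30.2 and 30.1% in the wild ones. Genes 2-fold higher in cultivated corms held 56.1, 56.4 and 56.5% of TPM in the cultivated libraries and 10.7, 10.5 and 10.5% in the wild ones. Genes 2-fold lower held 12.9, 12.8 and 12.9% in the cultivated libraries and 58.5, 59.1 and 59.2% in the wild ones. The classes were chosen on these same libraries, so the shares describe them and carry no test. The 10 highest genes of the class higher in cultivated corms held 13.2% of cultivated TPM, and the 10 highest of the class lower in cultivated corms held 13.3% of wild TPM. For 50% of the TPM of its class, 88 of 4621 genes were needed in cultivated and 274 of 10028 in wild corms, classes of unequal size.

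**Figure D2:**
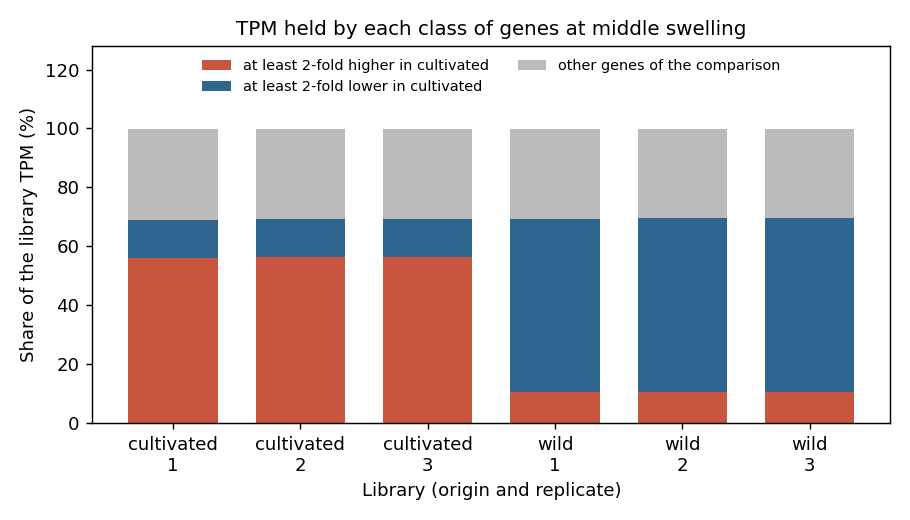
Share of each library's TPM (y axis, %) held by genes at least 2-fold higher in cultivated corms, genes at least 2-fold lower, and the other genes of the comparison, in the 3 cultivated and 3 wild libraries of middle swelling. The first class holds over 56% in each cultivated library and under 11% in each wild library, and the second class shows the opposite.

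Fewer genes reached 1 TPM in the cultivated libraries, and fewer held 50% of their TPM. Sequencing depth is unknown and TPM is a share of a fixed total, so these counts may not reflect the corms alone. The number of genes at 1 TPM or more was 19732, 19660 and 19725 in the cultivated libraries and 24333, 24254 and 24311 in the wild libraries. The groups did not overlap, and the mean difference was -4594 genes. The exact permutation test gave p = 0.1 (two-sided, adjusted p = 0.1 over 2 tests), the smallest value that 3 against 3 libraries allow. Between 312 and 320 genes were enough to hold 50% of TPM in a cultivated library, against 720 to 747 in a wild library. The 10 highest genes held 16.2, 16.4 and 16.4% of TPM in cultivated and 13, 13.7 and 14% in wild libraries (exact permutation p = 0.1, two-sided). That order was the reverse for the single highest gene.

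The single highest gene was novel1867 in all 6 libraries. It stood at 36697, 35813 and 37356 TPM in cultivated corms and at 72010, 77372 and 79674 TPM in wild corms. The cultivated libraries were all lower, and the difference was -1.06 ± 0.07 (log2, SE, adjusted p = 1.57e-11 in limma), or -0.71 after scaling. The second gene differed by origin. In cultivated corms it was EdulChr8G00035780, at 29578, 30918 and 28160 TPM, against 2521, 2375 and 2466 TPM in wild corms. It was higher in cultivated corms by 3.59 ± 0.06 (log2, SE, adjusted p = 1.59e-22 in limma). In wild corms the second gene by mean level was novel1789, which had 3701, 4315 and 3744 TPM in cultivated and 11434, 12368 and 11997 TPM in wild libraries. All cultivated libraries were lower, and the difference was -1.61 ± 0.09 (log2, SE, adjusted p = 6.30e-13 in limma).

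The largest rise among the genes that met the naming rule was that of EdulChr19G00080780. It had 1573, 1599 and 1615 TPM in cultivated libraries and 0.2, 0.41 and 0.33 TPM in wild libraries. The difference was 10.25 ± 0.09 on the log2 scale (SE), at a limma adjusted p of 1.61e-26. EdulChr2G00006240 followed with 2026, 2413 and 2422 TPM in cultivated and 1.2, 3.7 and 1.52 TPM in wild libraries. The difference was 9.59 ± 0.63 (log2, SE, adjusted p = 6.36e-12 in limma). For both genes the groups were far apart in every pair of libraries. The added 1 TPM makes differences of genes near 0 too small on this scale.

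The largest falls were those of EdulChr66G00225550 and EdulChr44G00165910. EdulChr66G00225550 had 0.38, 0 and 0 TPM in cultivated libraries and 3761, 3661 and 3772 TPM in wild libraries. The difference was -11.71 ± 0.17 (log2, SE, adjusted p = 4.31e-23 in limma). EdulChr44G00165910 was listed at 0 in all 3 cultivated libraries and stood at 979, 973 and 1020 TPM in wild libraries (limma adjusted p = 5.63e-25). It was also the highest gene listed at 0 throughout the cultivated group. In the opposite direction the highest was novel2201, with 80.9, 35.8 and 86.2 TPM in cultivated libraries and 0 in all 3 wild ones (limma adjusted p = 4.33e-09). The lowest cultivated library of novel2201 still lay far above the wild ones.

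Some strongly expressed genes stood level. Of genes with a mean of at least 100 TPM, EdulChr18G00072900 and EdulChr21G00085360 had the smallest differences. EdulChr18G00072900 had 228, 227 and 264 TPM in cultivated and 221, 264 and 232 TPM in wild libraries. EdulChr21G00085360 had 653, 686 and 648 TPM in cultivated and 633, 698 and 654 TPM in wild libraries. The groups overlapped for both, with log2 differences of 0.00 ± 0.09 and 0.00 ± 0.05 (SE, limma adjusted p = 0.987 and 0.975). Being level was itself a matter of scaling. After median-of-ratios scaling the differences were 0.34 and 0.35, and both passed the test.

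Many genes were detected in 1 origin and not in the other. A set of 820 genes reached 1 TPM in each of the 3 cultivated libraries and in none of the 3 wild libraries. The opposite pattern was shown by 4747 genes. These genes passed the rule through 1 group, so a difference was built into their choice. After scaling the numbers were 1072 and 4297, and with limits of 2 TPM in 1 origin and 0.5 TPM in the other they were 232 and 2532. Most were weak. The median level was 2.92 TPM in cultivated and 0.442 TPM in wild corms for the 820, and 0.0967 TPM in cultivated and 3.93 TPM in wild corms for the 4747. At 10 TPM or more on the higher side there were 116 of the 820 and 1104 of the 4747. Genes listed at 0 in all 3 wild libraries numbered 72, and those listed at 0 in all 3 cultivated libraries 1303.

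The other stages, whose libraries played no part in choosing these sets, showed where else the genes were detected. Of the 4747 genes seen in wild corms, 2835 had at least 1 TPM in all 3 cultivated libraries of initial swelling, which is 59.7%. At late swelling and maturity 10.5% and 3.03% did. In wild corms the share was 86.7% at initial swelling, 55.8% at late swelling and 22% at maturity. Over all 24815 genes the shares at initial swelling, late swelling and maturity were 89.7, 78.4 and 74.3% for cultivated libraries, against 90.2, 80.8 and 67.8% for wild libraries. The 86.7% in wild initial corms was thus near the share of all genes, and the late and mature cultivated shares were far below it. Of the 4747, 2063 reached 1 TPM in all cultivated libraries of initial swelling and in no later cultivated library. Another 1390 were under 1 TPM in all 12 cultivated libraries. Of the 820 genes seen in cultivated corms, 69.5, 90.0 and 81.3% were detected in cultivated corms at initial swelling, late swelling and maturity, against 7.07, 15.4 and 15.4% in wild corms. The cultivated share lay below that of all genes at initial swelling and above it at the later stages, and the wild shares lay below it at all 3. Both sets were mostly weak and were chosen as under 1 TPM in 1 origin, so all 24815 genes are not a matched background. Of these 820, 531 were under 1 TPM in all 12 wild libraries.

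**Figure D3:**
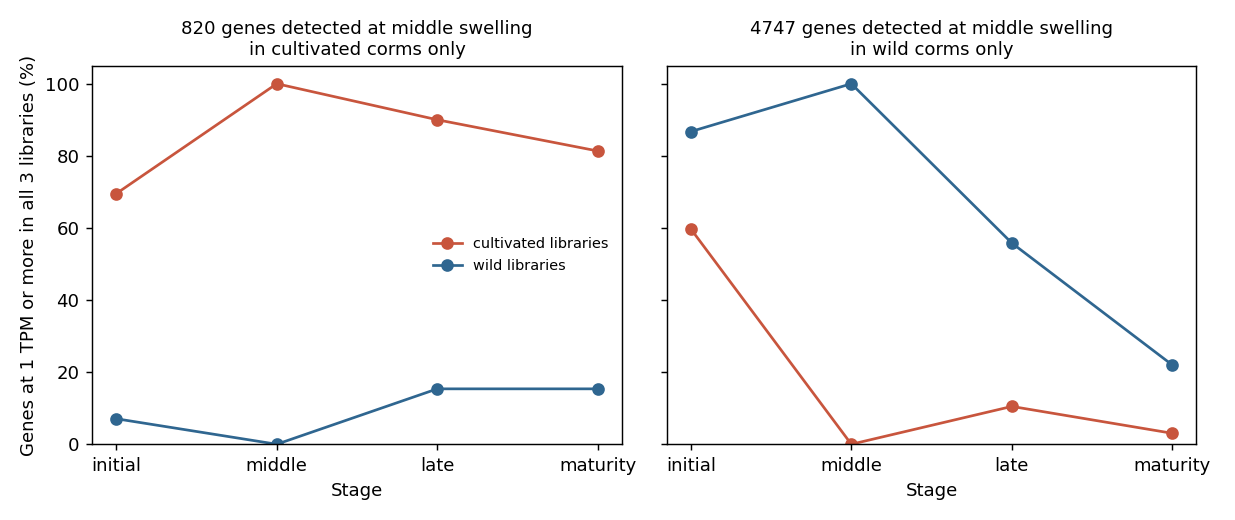
Share of genes (y axis, %) at 1 TPM or more in all 3 libraries of a group, by stage, for the 820 genes detected at middle swelling in cultivated corms and the 4747 detected in wild corms; the values at middle swelling are set by the choice of genes. Of the 4747, 59.7% were detected in cultivated initial corms and 3.03% in cultivated mature corms, whereas the 820 stayed at or below 15.4% in wild corms of every stage.

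Genes 2-fold higher in cultivated corms at middle swelling were mostly higher there at the other stages too. Of these 4621 genes, 60.7% were 2-fold higher at initial swelling, 79.2% at late swelling and 77.9% at maturity, against backgrounds of 21.1, 31.9 and 27.7% of all tested genes. Of the 10028 genes 2-fold lower at middle swelling, 42.5, 45.6 and 24.6% were 2-fold lower at the same stages, against backgrounds of 20.2, 22.3 and 12.2%. The comparisons share no library. A 2-fold rise at all 4 stages was found in 45.6% of the 4621 genes, and a 2-fold fall at all 4 stages in 13.1% of the 10028. This contrast depended on the scaling. After it, the shares 2-fold higher at initial swelling, late swelling and maturity were 44.1, 56.2 and 59.0% of 5712 genes, against backgrounds of 15, 19.1 and 18.9%. The shares 2-fold lower were 52.5, 64.1 and 44.2% of 8429 genes, against 22.9, 30.4 and 22.8%. All 4 stages were then shared by 23.9% and 25.9%. No 2-fold difference at any other stage was found for 156 of the 4621 and 2788 of the 10028, and after scaling for 741 of 5712 and 1408 of 8429. For the shares at all 4 stages and at no other stage, no background over all tested genes is given, so their size was not judged.

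The difference at middle swelling was then tested against the same difference at the other stages. In limma's interaction test against the mean of initial, late and maturity, 21803 of the 24815 genes passed, or 87.9%, with a background of 86.4%. The median of this difference of differences was -0.76 as deposited and -0.07 after scaling, which centres the typical gene of each library and so largely fixes this median near 0. After scaling 20044 genes passed, or 80.8%. As the share is near its background, it says nothing particular to these genes. At least 2-fold against each of the 3 other stages, 421 genes were shifted towards cultivated corms and 4094 towards wild corms, with backgrounds of 1.6% and 15.2%. After scaling these numbers were 1238 and 1333, with backgrounds of 4.64% and 4.93%. The balance between the directions follows the centring and is not read as a result.

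The levels behind these genes describe how they were chosen and carry no test. The median of the 421 genes was 16.0, 46.1, 29.6 and 27.5 TPM in cultivated corms from initial swelling to maturity, and 26.2, 10.4, 72.9 and 45.0 TPM in wild corms. At middle swelling the cultivated median was above the wild one, and at the other stages it was below. The median of the 4094 genes was 8.6, 1.40, 2.8 and 1.68 TPM in cultivated corms and 9.3, 11.1, 2.78 and 1.34 TPM in wild corms. At middle swelling the cultivated median was far below the wild one, and at the other stages the medians lay close together.

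The strongest shift towards cultivated corms was found in EdulChr111G00333770 and EdulChr111G00333760, a pair with consecutive IDs. EdulChr111G00333770 had 488, 516 and 625 TPM in cultivated and 38.6, 40.4 and 53.6 TPM in wild libraries of middle swelling. The difference was 3.60 ± 0.14 (log2, SE, adjusted p = 4.02e-16 in limma). At every other stage it was lower in cultivated corms, with differences of -2.63 at initial swelling, -9.56 at late swelling and -7.01 at maturity. At late swelling its mean was 3.74 ± 0.65 TPM in cultivated and 3594 ± 569 TPM in wild corms (SD, n = 3 each). The difference at middle swelling exceeded the mean of the others by 9.998 ± 0.16 (log2, SE, limma adjusted p = 2.08e-21).

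EdulChr111G00333760 followed the same course at a lower level. It had 112, 120 and 108 TPM in cultivated and 11.01, 14.4 and 13.9 TPM in wild libraries of middle swelling. At late swelling it stood at 0.35, 0 and 0.57 TPM in cultivated and 1284, 1179 and 1276 TPM in wild libraries. Its difference at middle swelling exceeded the mean of the others by 9.63 ± 0.17 (log2, SE, limma adjusted p = 8.02e-21). Whether the pair shares sequence, and so reads, could not be examined here.

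The strongest shift towards wild corms was found in EdulChr3G00014020 and EdulChr79G00258260. EdulChr3G00014020 was listed at 0 in all 3 cultivated libraries of middle swelling and had 383, 354 and 391 TPM in wild libraries. At initial swelling the order was the opposite, with 610, 486 and 505 TPM in cultivated and 99.3, 109 and 116 TPM in wild libraries. EdulChr79G00258260 had 0.25, 0 and 0 TPM in cultivated and 376, 330 and 355 TPM in wild libraries of middle swelling, and 75.1 ± 4.43 TPM in cultivated against 107 ± 5.44 TPM in wild corms at initial swelling (SD, n = 3 each). Both were listed at 0 in all cultivated libraries of late swelling and maturity and fell in wild corms to 0.82 TPM or less by maturity. Their differences at middle swelling lay below the mean of the others by -7.59 ± 0.19 and -6.67 ± 0.10 (log2, SE, limma adjusted p = 1.79e-18 and 9.23e-22).

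**Figure D4:**
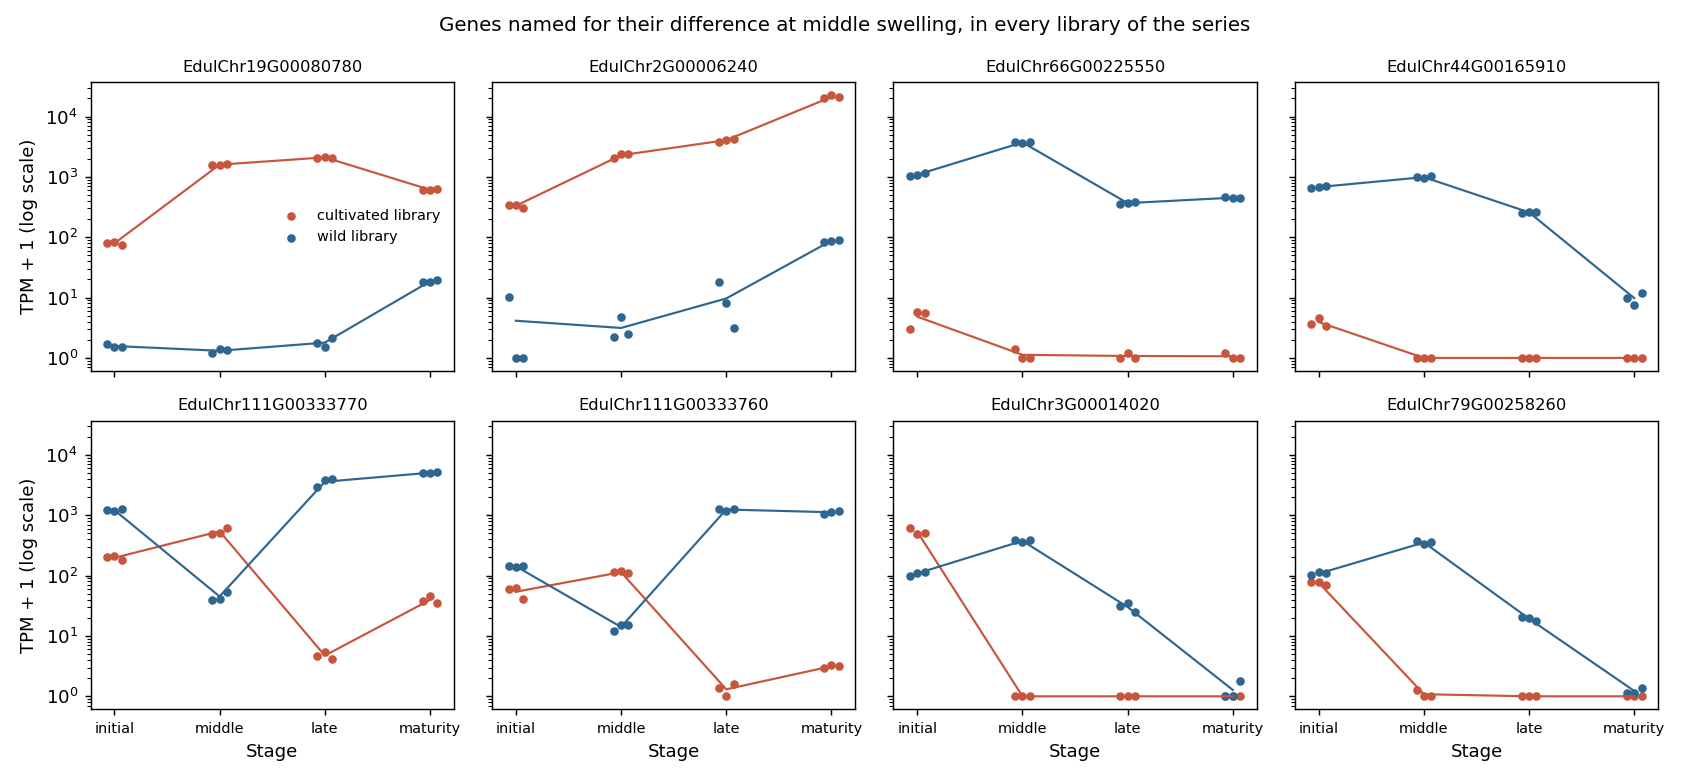
TPM + 1 (y axis, log scale) by stage (x axis) for 8 genes in cultivated and wild corms; points are single libraries, shifted sideways for visibility, and lines join the means of 3. In the top row the origins keep their order at every stage, and in the bottom row EdulChr111G00333770 and EdulChr111G00333760 are higher in cultivated corms at middle swelling alone, while EdulChr3G00014020 and EdulChr79G00258260 are near 0 in cultivated corms from middle swelling on.

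Differences were also read by the chromosome number written in the ID, which 22847 genes of the comparison carry. Between 89 and 359 genes shared a number. The median share per number was 18.8% of genes 2-fold higher and 40.0% 2-fold lower in cultivated corms. Number 47 stood apart, an observation made after the values were seen. Of its 180 genes, 10 were 2-fold higher and 108 were 2-fold lower, or 5.56% and 60%. The nearest other numbers had 11.2% higher and 47.8% lower. The median difference of number 47 was -1.33 (log2), against -0.56 for the median over the 111 numbers and -0.94 for number 85, the next lowest.

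The genes of number 47 were low in every cultivated library. Their median level at middle swelling was 2.97, 2.66 and 2.82 TPM in the cultivated libraries and 11.1, 10.7 and 11.1 TPM in the wild libraries. Over all numbered genes the median was 6.86, 6.84 and 6.99 TPM in cultivated and 9.79, 9.67 and 9.78 TPM in wild libraries. Genes of number 47 held 0.294, 0.287 and 0.302% of TPM in cultivated and 0.663, 0.663 and 0.649% in wild libraries.

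The other 18 libraries, which were not used to single number 47 out, gave the same order. Its 180 genes were still kept by their levels at middle swelling. Of these, 46 passed the rule through wild corms alone, or 25.6%, against 19.1% of all genes of the comparison. For its genes at 1 TPM or more in all 6 libraries, the offset from the median over numbers at middle swelling was -0.80 (log2). Number 47 had the lowest median of the 111 numbers at each of the 4 stages. It lay below the median over numbers by -0.85 at initial swelling, -0.77 at middle swelling, -0.81 at late swelling and -0.91 at maturity (log2). After scaling these offsets were -0.79, -0.86, -0.81 and -1.15. Of its 180 genes 74 were called lower in cultivated corms at all 4 stages, or 41.1%, against 16.0% of the 22667 genes with other numbers. After scaling it was 90 of the 180, against 24% of the others. These counts also require the call at middle swelling, where number 47 was singled out and 145 of its genes were called lower as deposited. They are therefore not independent of its choice. Over all tested genes the share called lower was 39.4% at initial swelling, 58% at middle swelling, 37.6% at late swelling and 29% at maturity. In ID order the genes were split into 10 groups of 18, and every group lay below the median over numbers at each stage, by -0.33 to -1.90 at middle swelling. The offset was -1.02 for the 50 genes of number 47 with a mean of at least 20 TPM. The cause was not tested.

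**Figure D5:**
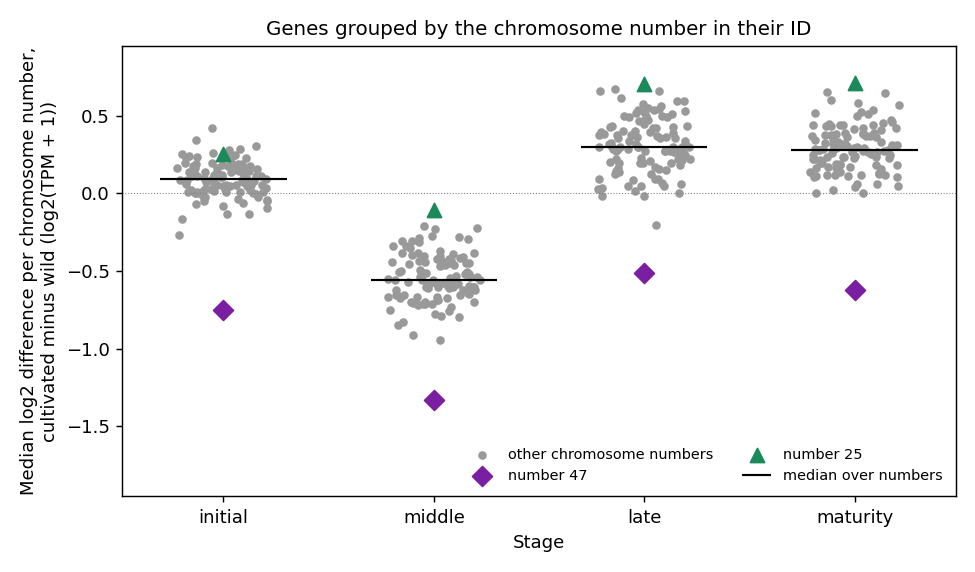
Median log2 difference between cultivated and wild corms (y axis, log2(TPM + 1)) of the genes sharing each of the 111 chromosome numbers in their IDs, at each stage (x axis); the line is the median over numbers and points are spread sideways for visibility. Number 47 is the lowest at all 4 stages, from -0.51 at late swelling to -1.33 at middle swelling, and number 25 is the highest at middle swelling, late swelling and maturity.

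At the other end, number 25 had the highest median at middle swelling, -0.11 over 321 genes, with 28.3% of genes 2-fold higher in cultivated corms. It was also the highest at late swelling and maturity, at 0.71 both times, and within the range of the other numbers at initial swelling, at 0.25.

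Directions of neighbouring IDs were counted as well. Among 16625 pairs of consecutive IDs, 21.0% of genes after a 2-fold higher gene were 2-fold higher themselves, against 18.9% of all second genes. After a 2-fold lower gene 42.8% were lower, against 39.5%. These differences were not tested, and chromosome numbers differ in their shares. The longest unbroken run held 12 genes, from EdulChr28G00111910 to EdulChr28G00112020, all 2-fold lower in cultivated corms. The median level in the run was 2.74 TPM in cultivated and 336 TPM in wild corms, with differences from -8.59 to -1.47 (log2). At initial swelling the median was 9.42 TPM in cultivated and 415 TPM in wild corms, and at maturity 1.35 TPM in cultivated and 9.46 TPM in wild corms. At late swelling it was 1.80 TPM in cultivated and 124 TPM in wild corms. The highest gene of the run then stood at 1060 TPM in cultivated corms, against a highest level of 426 TPM in wild corms. Not every gene of the run was thus lower in cultivated corms at that stage. Whether genes of the run share sequence, and so reads, could not be examined here.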

How the data were processed

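The series design names DNBSEQ-T7 as the sequencer for the corm RNA and calls the 3 samples of a stage biological replicates. The authors deposited 1 table of TPM values, given to 2 decimals, with 1 column per library. The submitters' processing notes list HISAT2 2.0.4, StringTie 2.1.6 and DESeq2 but do not say which step each served. The sources used here name no genome build, annotation or filter. Columns were matched to samples by origin, stage and sample number in the titles.

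TPM is not a count, so log2(TPM + 1) went into a linear model in limma 3.58.1 (R 4.3.3) with a variance trend on expression level. The model held all 24 libraries, with 8 group means and no replicate block. The 27050 genes at 1 TPM or more in at least 3 libraries were fitted, and Benjamini-Hochberg adjustment ran over all of them. Genes were called at an adjusted p under 0.05. Whole-library values were compared with an exact permutation test (scipy 1.17.1). On simulated data for this comparison with 27050 genes, the fit recovered 96, 100, 100 and 98% of the genes given a log2 change of 0.5, 1, 2 and 4, with 50 genes per size, and 12 of its 209 calls were false. The changed genes were drawn from those above about 5 TPM, all others were equal between the origins at middle swelling, and noise was independent and normal. In the data most genes differed and many were weaker, so these rates do not carry over to the calls reported here.

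Named genes are the 2 largest rises and falls (at least 10 TPM on the higher side, groups not overlapping), the 2 strongest shifts each way against the other stages, the 2 highest genes of each origin, the highest gene listed at 0 in the other origin, and the 2 smallest differences at 100 TPM or more. The members, lists and rules were chosen with earlier results of these data known. Lists of functional genes were not used, as no names are paired with the IDs. Alternatives were another pseudocount, other filters, scaling, removal of the 10 highest genes, the 6 libraries alone, a fit to the 24815 genes alone, a replicate block and each library left out. Those on chromosome number 47, on genes of 1 origin and on scaled stage patterns were chosen after seeing the data.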

Additional observations from a re-analysis of the deposited data

Results flagged for a closer look

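For most genes the difference between cultivated and wild corms at middle swelling was unlike the mean of the other stages. The test against the mean of the other stages passed for 21803 genes of the comparison in limma's interaction test, 87.9% of them, near the 86.4% of all tested genes. After scaling it passed for 20044, or 80.8%. Among the named genes, the difference at middle swelling minus the mean of the others (log2) was 9.998 for EdulChr111G00333770 and 9.63 for EdulChr111G00333760. It was -7.59 for EdulChr3G00014020 and -6.67 for EdulChr79G00258260. It was 3.28 for EdulChr19G00080780, whose difference at late swelling, 10.21, did not pass the test against that at middle swelling (limma adjusted p = 0.782).

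It was -3.37 for EdulChr66G00225550 and -3.71 for EdulChr44G00165910. The fitted values of genes listed at 0 in a group, EdulChr44G00165910, EdulChr3G00014020 and novel2201 among them, move with the pseudocount. Of the most abundant genes, novel1867 had 1.76, novel1789 had 1.92 and EdulChr8G00035780 had 1.23, and after scaling 2.66, 2.82 and 2.13. These means cover unlike stages. Against maturity alone novel1867 had -0.15 and novel1789 had 0.12, neither of which passed (limma adjusted p = 0.173 and 0.403), and against initial swelling EdulChr8G00035780 had -0.28 (limma adjusted p = 0.00252). The value of novel2201 was 1.98, and against late swelling alone it was -0.64 and did not pass (limma adjusted p = 0.466). The genes level at middle swelling had -0.36 (EdulChr18G00072900) and -0.70 (EdulChr21G00085360). After scaling these became 0.54 and 0.20, so their sign depended on it, and against initial swelling alone neither passed (limma adjusted p = 0.152 and 0.636). EdulChr2G00006240, at 1.52, did not pass (limma adjusted p = 0.0572).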

How the results depend on the processing

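Counts of called and 2-fold genes stayed within 1.5 times under a pseudocount of 0.1, scaling, no filter, removal of the 10 highest genes, the 6 libraries alone and a fit to the 24815 genes alone. Stricter filters hold fewer genes and gave lower counts. With a mean TPM of at least 5, 8783 genes were called lower, 5967 were 2-fold lower and 14399 were unlike the other stages. With at least 1 TPM in all 6 libraries, 8802 were called lower and 5004 were 2-fold lower. Of 2-fold genes, 31.5% were higher in cultivated corms as deposited and 40.4% after scaling, and among genes at 1 TPM in all 6 libraries 43.4% and 55.7%.

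After scaling, 1238 genes were shifted at least 2-fold towards cultivated corms against each other stage and 1333 towards wild corms. With limits of 2 and 0.5 TPM, 232 genes were seen in cultivated and 2532 in wild corms alone. The share of the single highest gene was lower in cultivated corms by -3.97 percentage points, the reverse of the 10 highest. The offset of number 47 was -0.86 after scaling, -1.02 at a mean of 20 TPM and -1.19 with a pseudocount of 0.1. The cause was not tested.

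Leaving out each library in turn gave 8118 to 8296 genes called higher and 14251 to 14461 called lower, 4585 to 4636 2-fold higher and 10008 to 10043 2-fold lower, and 21473 to 21893 unlike the other stages. It gave offsets of -0.83 to -0.73 for number 47. It gave differences of -4616 to -4571 detected genes and of 2.48 to 2.97 points for the 10 highest. Genes of 1 origin were 820 to 876 for cultivated and 4747 to 4924 for wild corms. EdulChr18G00072900 ranged from -0.069 to 0.074 and EdulChr21G00085360 from -0.030 to 0.041, changing sign. Other named genes kept their direction and call.

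Same-numbered libraries did not vary together (correlations of -0.03, -0.02 and 0.00), so the numbers were not taken as pairs. With a replicate block 4622 genes were 2-fold higher and 10026 lower, and 21775 were unlike the other stages. Depth is unknown, and genes under 1 TPM are limited most by it.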
